A study of Homo sapiens with 5 samples.

Results

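The IL6 family and STAT3 signalling genes are a set of 10 genes (IL6, IL6R, IL6ST, LIF, LIFR, OSMR, JAK1, JAK2, STAT3 and SOCS3) that were taken by symbol from a deposited table of 37181 genes or assembled loci. All 10 were found, 9 of them as a single entry, and for JAK2, which had 2 entries, the entry with the higher mean was used. HCC827 is a human lung adenocarcinoma cell line whose epidermal growth factor receptor carries the deletion labelled exon 19 del, and gefitinib is an inhibitor of that receptor's kinase. HCC827/GR cells were derived from HCC827 cells by raising the dose of gefitinib stepwise over more than 6 months, and both lines carry the same label for the deletion. RNA sequencing of 3 gefitinib-resistant libraries (HCC827/GR replicates 1, 2 and 3) was compared with that of 2 gefitinib-sensitive libraries (HCC827 replicates 2 and 3). A single resistant line was profiled, and no label says whether the libraries came from separate cultures, so p-values measure only the spread between these libraries, which may be technical.

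Cytokines of the IL6 family share a signalling receptor chain, gp130, which is encoded by IL6ST. IL6 first binds its own receptor IL6R, whereas LIF signals through a pair of LIFR and gp130, and oncostatin M through OSMR or LIFR paired with gp130. The paired receptors bring together the kinases JAK1 and JAK2, which phosphorylate the transcription factor STAT3, and SOCS3 is induced by STAT3 and shuts the receptor down. In lung adenocarcinoma this pathway is known as a source of survival signals beside those of the epidermal growth factor receptor. Levels of mRNA do not show phosphorylation, so the values below describe the parts of the pathway and not its activity.

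In HCC827/GR cells both ligands and 1 receptor chain of the set were higher. IL6 mRNA was 6.41 times, LIF mRNA 2.20 times and OSMR mRNA 1.67 times that of HCC827 cells as a ratio of mean FPKM (fragments scaled by transcript length and library total, the unit of the deposited table). STAT3 mRNA was at 0.998 times the HCC827 level, and IL6R, IL6ST, LIFR, JAK1, JAK2, STAT3 and SOCS3 did not pass the test. The test was limma on log2(FPKM + 1) with Benjamini-Hochberg adjustment over the 16189 entries whose mean reached 0.5 FPKM, and an adjusted p under 0.05 counted as a call. All 10 genes were above that mean. Of these, 3 were called higher and 0 lower, whereas 5.26% of all entries tested were called higher, 5.71% lower and 11.0% in either direction. At an unadjusted p under 0.05, limma gave 4 higher and 0 lower, against 13.4% and 13.8% of all entries. Under a linear model of the Ballgown type with a library size term, 0 of the 10 genes were called (adjusted p 0.33 for IL6, 0.183 for LIF and 0.17 for OSMR). That model called only 4 higher and 9 lower of the 16189 entries tested. With single libraries left out, limma called 1 gene higher without HCC827/GR replicate 1, HCC827/GR replicate 2 or HCC827 replicate 3, 2 without HCC827/GR replicate 3 and 0 without HCC827 replicate 2 (3 at an unadjusted p under 0.05). Of all entries tested, limma called 202, 368 and 485 higher without HCC827/GR replicates 1, 2 and 3, against 851 with all libraries. With all libraries, the log2 fold change was above 0 for 7 of the 10 genes and below 0 for 3. Its median was 0.51 against 0.00 (0.0014) over all entries tested. For 8 genes no library of one line fell within the range of the other, 6 of them higher and 2 lower in HCC827/GR cells, against 46.3% of all entries tested (22.8% higher and 23.4% lower). These are bulk libraries, in which fewer cells that carry an mRNA and less of it per cell cannot be told apart.

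**Figure D1:**
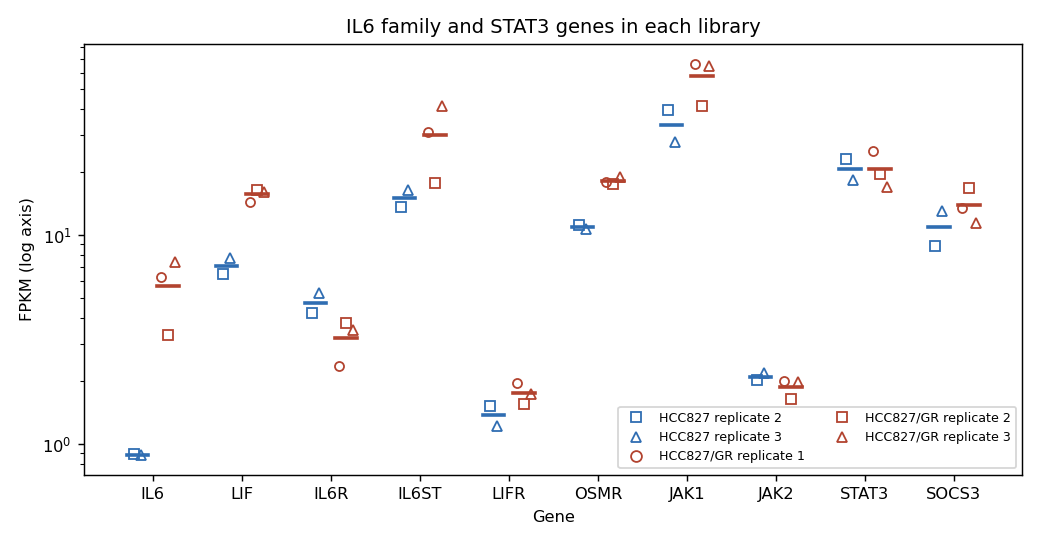
FPKM of the 10 genes in each library on a log axis, with HCC827 libraries in blue, HCC827/GR libraries in red, a symbol for each replicate number and a bar at the mean of each group. IL6, LIF and OSMR lay clearly higher in HCC827/GR cells, and STAT3 and SOCS3 overlapped between the groups.

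For IL6 and OSMR, which were called higher, the 250 bases before a RefSeq transcript start are shown. The annotated genes start at 22725884 (IL6) and 38845858 (OSMR), so the IL6 window and part of the OSMR window lie within them. LIF, the other gene called higher, has no entry in the promoter table. Capitals mark the match to the NF-kB motif (GGGA, any base, TTTCC), which was searched on both strands. The sequences are from GRCh38.p14 and read 5′ to 3′ on the plus strand, IL6 from chr7:22726950-22727199 and OSMR from chr5:38845762-38846011.
IL6: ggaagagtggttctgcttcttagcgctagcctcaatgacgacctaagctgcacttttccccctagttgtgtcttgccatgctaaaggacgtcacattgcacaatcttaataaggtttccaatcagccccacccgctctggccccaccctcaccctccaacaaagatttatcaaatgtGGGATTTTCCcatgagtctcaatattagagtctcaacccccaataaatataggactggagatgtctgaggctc
OSMR: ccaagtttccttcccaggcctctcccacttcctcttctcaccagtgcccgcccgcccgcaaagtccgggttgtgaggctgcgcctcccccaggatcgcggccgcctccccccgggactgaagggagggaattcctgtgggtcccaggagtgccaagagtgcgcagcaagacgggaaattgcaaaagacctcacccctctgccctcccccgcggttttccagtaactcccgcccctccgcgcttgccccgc
The capitals in the IL6 promoter, at chr7:22727127-22727136, span positions -73 to -64 from the transcript start, and 0.527% of 35116 promoter windows of this length hold the motif. The STAT motif TTCNNNGAA and the AP-1 motif TGANTCA, each held by 6.57% of the windows and searched on both strands, matched neither of these 2 sequences. Across the 17 windows listed for 9 of the 10 genes, the STAT motif matched only in 2 windows of LIFR, the NF-kB motif only in that of IL6, and the AP-1 motif in none. The SOCS3 windows, at chr17:78359668-78359917 and chr17:78360926-78361175, do not hold the bases just before 78360077, where the annotated gene starts on the minus strand. Those bases were not searched. A match is a description of letters and does not show that a factor binds there.

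Among the ligands, IL6 had the largest difference of the 10 genes. IL6 encodes interleukin 6, a cytokine of inflammation, and lies on chromosome 7 of GRCh38 from 22725884 to 22732002. Its level was 6.25, 3.32 and 7.44 FPKM in HCC827/GR replicates 1, 2 and 3 and 0.890 and 0.879 FPKM in HCC827 replicates 2 and 3. Every HCC827/GR library was above both HCC827 libraries, and HCC827/GR replicate 2 was the lowest of the resistant libraries. The means were 5.67 ± 2.12 FPKM (SD, n = 3) and 0.885 ± 0.00815 FPKM (SD, n = 2). On the log2(FPKM + 1) scale the fold change was 1.77 ± 0.309 (SE) at a limma adjusted p of 0.0336, and 98.1% of the entries tested had a smaller difference in size. The log2 of the ratio of mean FPKM was 2.68. By limma, the call was lost without HCC827/GR replicate 1 (adjusted p 0.108) or replicate 3 (adjusted p 0.0741) and kept without replicate 2 (adjusted p 0.0214). The cause of these losses was not tested. Without HCC827 replicate 2 or 3, which leaves 1 library of that line, the log2 fold change was 1.77 and 1.76. On the log2(FPKM + 1) scale the change stayed between 1.57 and 2.05 over these settings.

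LIF encodes leukemia inhibitory factor, and it lies on chromosome 22 from 30240447 to 30246851 on the minus strand. It stood at 14.4, 16.4 and 16.1 FPKM in HCC827/GR replicates 1, 2 and 3 and 6.48 and 7.74 FPKM in HCC827 replicates 2 and 3. The resistant libraries were close to each other and all above the sensitive ones, in contrast to the wider spread of IL6. The means were 15.6 ± 1.09 FPKM (SD, n = 3) and 7.11 ± 0.891 FPKM (SD, n = 2), a log2 fold change of 1.04 ± 0.118 (SE) at a limma adjusted p of 0.0124. Its adjusted p was 0.0509 without HCC827/GR replicate 2 and 0.0612 without HCC827 replicate 2, and the log2 fold change lay between 0.93 and 1.15 with each library left out. With the values from limma, IL6 and LIF were the 2 genes of the set at least 2 times higher with an unadjusted p under 0.05, thresholds that the study applied to Ballgown results, as were 2.96% of all entries tested, and 0 of the set were at most 0.5 times as high, against 3.97% of all. Under the Ballgown-type model neither gene met both thresholds, since IL6 had a log2 fold change of 1.70 with an unadjusted p of 0.0844 and LIF one of 0.96 with an unadjusted p of 0.0122.

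Both cell lines had more LIF than IL6 mRNA per length. The ratio of LIF to IL6 was 7.28 and 8.80 in HCC827 replicates 2 and 3 and 2.30, 4.93 and 2.17 in HCC827/GR replicates 1, 2 and 3. The ratio was thus lower in each resistant library, with a log2 difference of -1.46 (exact permutation test, two-sided, p = 0.2, adjusted p = 0.35 over 7 ratios). Splitting 5 libraries into 3 and 2 allows no exact p below 0.1. These 7 ratios between members were chosen after the values were seen, and the groups overlapped in 3 of them, IL6ST to OSMR (exact permutation p = 0.8), IL6ST to LIFR (exact permutation p = 0.4) and STAT3 to SOCS3 (exact permutation p = 0.5).

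Among the receptors, OSMR was the one that passed the test. OSMR encodes the oncostatin M receptor and lies on chromosome 5 from 38845858 to 38945596 on the plus strand. Its level was 18.0, 17.5 and 19.0 FPKM in HCC827/GR replicates 1, 2 and 3 and 11.1 and 10.6 FPKM in HCC827 replicates 2 and 3. All resistant libraries lay above the sensitive ones, and the replicates of each line were close together. The means were 18.2 ± 0.728 FPKM (SD, n = 3) and 10.9 ± 0.360 FPKM (SD, n = 2), a log2 fold change of 0.69 ± 0.0878 (SE) at a limma adjusted p of 0.0159. With a library left out, the adjusted p was 0.0667 without HCC827/GR replicate 1, 0.0544 without HCC827/GR replicate 2, 0.0497 without HCC827/GR replicate 3, 0.0625 without HCC827 replicate 2 and 0.0650 without HCC827 replicate 3. Its size moved little, from 0.66 to 0.72. Of the 12 transcripts joined in the OSMR entry, 5 are annotated and 7 were assembled by the authors.

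IL6ST encodes gp130, the chain that the receptors of the family share, and lies on chromosome 5 from 55935095 to 55994993. Its level was 31.2, 17.8 and 41.4 FPKM in HCC827/GR replicates 1, 2 and 3 and 13.6 and 16.5 FPKM in HCC827 replicates 2 and 3. HCC827/GR replicate 2 lay just above the higher HCC827 library, and the other resistant libraries lay well above it. Its log2 fold change was 0.89 (95% interval -0.08 to 1.85, adjusted p = 0.213 from limma), so a difference was not shown, and the interval also holds values as large as those of LIF. Without HCC827/GR replicate 2 the adjusted p was 0.0655 with a log2 fold change of 1.21.

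IL6R encodes the receptor that binds IL6 itself, and it lies on chromosome 1 from 154405193 to 154469450. Its level was 2.36, 3.78 and 3.51 FPKM in HCC827/GR replicates 1, 2 and 3 and 4.21 and 5.26 FPKM in HCC827 replicates 2 and 3. All resistant libraries were below the sensitive ones, although by a small margin for HCC827/GR replicate 2, and the log2 fold change of -0.45 (95% interval -0.97 to 0.06, adjusted p = 0.226 from limma) did not pass the test. The ratio of IL6ST to IL6R was 13.2, 4.70 and 11.8 in HCC827/GR replicates 1, 2 and 3 and 3.22 and 3.14 in HCC827 replicates 2 and 3. It was higher in each resistant library, with a log2 difference of 1.51 (exact permutation test, two-sided, p = 0.2, adjusted p = 0.35 over 7 ratios).

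LIFR encodes the LIF receptor and is a neighbour of OSMR on chromosome 5, from 38474963 to 38608354 on the minus strand, with 237503 bases between them. Among the 4 receptor genes of the set it had the lowest level, at 1.96, 1.54 and 1.72 FPKM in HCC827/GR replicates 1, 2 and 3 and 1.51 and 1.22 FPKM in HCC827 replicates 2 and 3. The lowest resistant library was just above the higher sensitive one, and the log2 fold change of 0.21 (95% interval -0.11 to 0.54, adjusted p = 0.350 from limma) did not pass the test. The ratio of OSMR to LIFR was 10.5 ± 1.18 (SD, n = 3) in HCC827/GR cells and 8.04 ± 0.980 (SD, n = 2) in HCC827 cells, a log2 difference of 0.39 (exact permutation test, two-sided, p = 0.2, adjusted p = 0.35 over 7 ratios). The ratio was higher in each resistant library, at 9.18, 11.4 and 11.0 in HCC827/GR replicates 1, 2 and 3 against 7.35 and 8.74 in HCC827 replicates 2 and 3. As 5 libraries allow no exact permutation p below 0.1, this test cannot decide whether the changes of OSMR and LIFR differed.

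**Figure D2:**
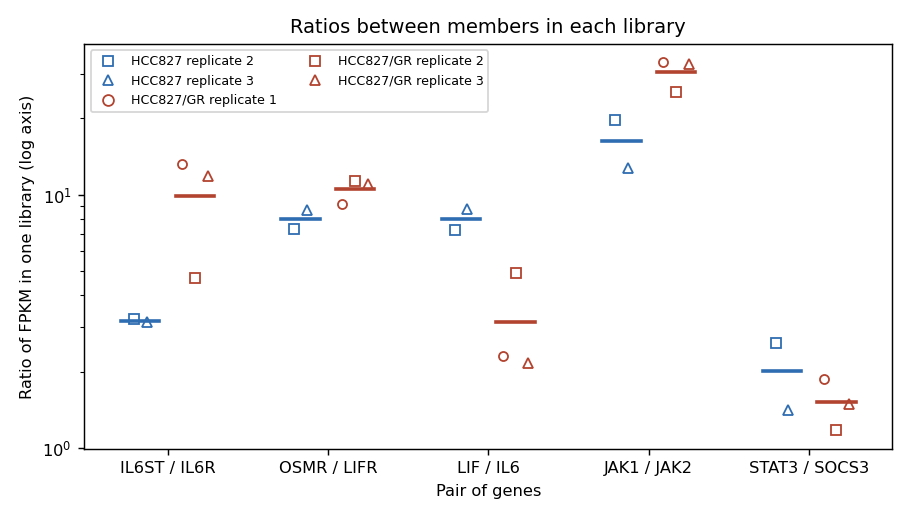
Ratio of the FPKM of 2 genes within each library on a log axis, for 5 pairs, with HCC827 libraries in blue, HCC827/GR libraries in red and a bar at the mean of each group. The ratios of IL6ST to IL6R, OSMR to LIFR and JAK1 to JAK2 were higher and that of LIF to IL6 lower in each HCC827/GR library. For each of these the adjusted p of the exact permutation test was 0.35, and the groups overlapped for STAT3 to SOCS3.

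The kinases differed widely in level. JAK1, on chromosome 1 from 64833229 to 64966504, was the most abundant of the 10 genes per length in each of the 5 libraries, at 66.3, 41.6 and 64.9 FPKM in HCC827/GR replicates 1, 2 and 3 and 39.5 and 27.8 FPKM in HCC827 replicates 2 and 3. HCC827/GR replicate 2 again lay only just above the higher HCC827 library. On the log2 scale the difference was 0.75 (95% interval 0.03 to 1.47), with an unadjusted p of 0.0437 and an adjusted p of 0.17 from limma, which is no call. It was 0.96 without HCC827/GR replicate 2 (limma adjusted p 0.0983), 1.00 without HCC827 replicate 2 and 0.50 without HCC827 replicate 3, so single libraries moved its size.

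JAK2, on chromosome 9 from 4984390 to 5128183, stood at 1.99, 1.64 and 1.98 FPKM in HCC827/GR replicates 1, 2 and 3 and 2.005 and 2.17 FPKM in HCC827 replicates 2 and 3. HCC827/GR replicate 1 almost reached HCC827 replicate 2, and a log2 fold change of -0.11 (95% interval -0.39 to 0.18, adjusted p = 0.592 from limma) did not pass the test. Its second entry was listed at 0 in all 5 libraries. The ratio of JAK1 to JAK2 was 30.5 ± 4.45 (SD, n = 3) in HCC827/GR cells and 16.3 ± 4.91 (SD, n = 2) in HCC827 cells (exact permutation test, two-sided, p = 0.1, adjusted p = 0.35 over 7 ratios).

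STAT3, the transcription factor at the end of the pathway, lies on chromosome 17 from 42313324 to 42388568. It stood at 25.3, 19.7 and 17.05 FPKM in HCC827/GR replicates 1, 2 and 3 and 23.1 and 18.3 FPKM in HCC827 replicates 2 and 3, and the libraries of both lines were interspersed. The means were 20.7 ± 4.2 FPKM (SD, n = 3) and 20.7 ± 3.34 FPKM (SD, n = 2). It differed by a log2 fold change of -0.01 (95% interval -0.54 to 0.52, adjusted p = 0.978 from limma), and its sign changed between the ways of processing that were tried.

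SOCS3, the feedback inhibitor induced by STAT3, lies farther along chromosome 17 from 78356778 to 78360077. It stood at 13.5, 16.7 and 11.4 FPKM in HCC827/GR replicates 1, 2 and 3 and 8.86 and 13.0 FPKM in HCC827 replicates 2 and 3. HCC827 replicate 3 lay within the range of the resistant libraries, and the log2 fold change of 0.33 (95% interval -0.26 to 0.92, adjusted p = 0.420 from limma) did not pass the test. Without HCC827 replicate 2 it was 0.08 and without HCC827 replicate 3 it was 0.58, so the size depended on which sensitive library was kept, as these differed by 1.46 times.

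**Figure D3:**
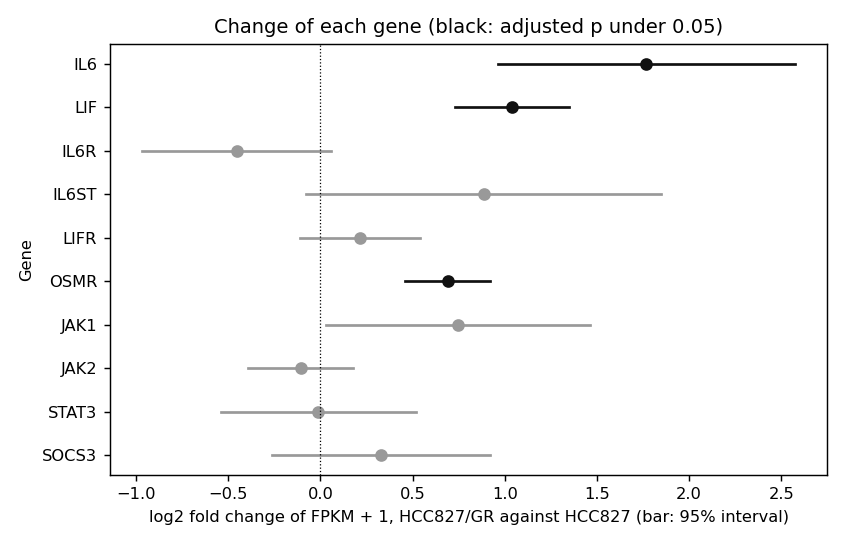
Log2 fold change of FPKM + 1 in HCC827/GR against HCC827 cells for each of the 10 genes, with the 95% interval from limma as a bar and genes with an adjusted p under 0.05 in black. IL6, LIF and OSMR are in black, at 1.77, 1.04 and 0.69, and STAT3 lies at -0.01.

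The order of levels per length was similar in all libraries apart from IL6. JAK1 ranked first throughout, followed by IL6ST, STAT3, OSMR, LIF and SOCS3 in an order that changed between libraries. At the lower end, IL6 was the lowest of the 10 genes in both HCC827 libraries, below LIFR and JAK2. In HCC827/GR cells LIFR was the lowest in each library, with a mean of 1.74 ± 0.209 FPKM (SD, n = 3), and JAK2 at 1.87 ± 0.198 FPKM (SD, n = 3) was within that spread. IL6 was above IL6R in HCC827/GR replicates 1 and 3 and below it in replicate 2. HCC827/GR replicate 2 was the lowest resistant library for 6 of the 10 genes, and it reached 0.486 times the mean of the other resistant libraries for IL6, 0.489 times for IL6ST and 0.635 times for JAK1, but 1.07 times for LIF and 1.34 times for SOCS3.

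The other genes of the pathway were read from 6 lists of 78 genes in all. Under their symbols 73 were found, and 58 reached a mean of 0.5 FPKM and were tested. Of these 58, 4 were called higher and 5 lower in HCC827/GR cells, which is 15.5% against 11.0% of all entries tested. At an unadjusted p under 0.05, 7 were higher and 15 lower by limma, against 13.4% and 13.8% of all entries tested. These shares, and the 5.26% called higher and 5.71% called lower of all entries, are the background for each list below. With single libraries left out, between 1 and 3 were called higher and between 0 and 1 lower. When an HCC827/GR library was left out, limma called between 202 and 485 of all entries higher and between 287 and 477 lower. With all libraries, the median log2 fold change of the 58 genes was -0.03 against 0.0014 over all entries. Among the 5 called lower, IL1RN reached the mean of 0.5 FPKM only through the HCC827 libraries. Beyond the genes the naming rule covers, others are given too, chosen with their values in view. Among them are STAT5A, STAT6, SOCS1, SOCS2, SOCS5, ADAM17, IL11, OSM, JUNB and CEBPB. The entries of IL11RA, LRG1 and MCL1 also join transcripts of other genes, so their values are uncertain.

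**Figure D4:**
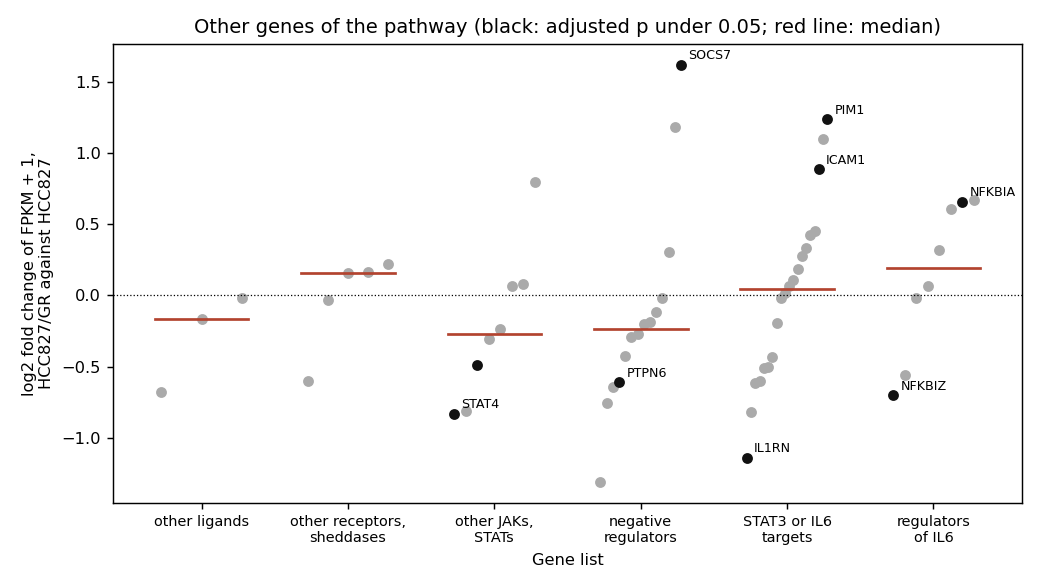
Log2 fold change of FPKM + 1 in HCC827/GR against HCC827 cells for the 58 tested genes of the 6 lists, ordered by size within each list, with genes of an adjusted p under 0.05 in black, a name beside those that the text describes and a red line at each list's median. The 4 black points above 0 are SOCS7, PIM1, ICAM1 and NFKBIA, and those named below 0 are STAT4, PTPN6, IL1RN and NFKBIZ.

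Among the 9 other ligands, 8 were found, 3 were tested and 0 were called by limma, with 0 at an unadjusted p under 0.05 and a median log2 fold change of -0.17. The entry named CNTF also joins transcripts of ZFP91, and that of CLCF1 joins transcripts of POLD4, so both values are uncertain. OSM, the ligand of OSMR, was not above 0.0563 FPKM in any library, and IL11 lay between 0.265 and 0.643 FPKM. Of the 6 other receptors and sheddases, which are the proteases that release IL6R from the membrane, 5 were tested and 0 were called, with 0 higher and 1 lower at an unadjusted p under 0.05. ADAM17, the main such protease, stood at 21.7, 22.3 and 19.8 FPKM in HCC827/GR replicates 1, 2 and 3 and 20.6 and 17.2 FPKM in HCC827 replicates 2 and 3.

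Of the 8 other JAK kinases and STAT factors, 8 were tested, 0 were higher and 2 lower (1 and 3 at an unadjusted p under 0.05), and the median was -0.27. STAT4, a factor known from interleukin 12 signalling, stood at 1.03, 0.974 and 0.710 FPKM in HCC827/GR replicates 1, 2 and 3 and 2.13 and 2.64 FPKM in HCC827 replicates 2 and 3, a log2 fold change of -0.83 ± 0.139 (SE) at a limma adjusted p of 0.0305. All resistant libraries lay below the sensitive ones, and the call was lost without any one of the 5 libraries, with a limma adjusted p from 0.0682 to 0.117. STAT6, with a log2 fold change of -0.81 (adjusted p = 0.109), and STAT5A, with 0.80 (adjusted p = 0.0967), did not pass limma's test.

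Among 16 other negative regulators, 14 were tested, of which 1 rose and 1 fell, with a median of -0.24. At an unadjusted p under 0.05, 1 was higher and 6 were lower by limma, against 13.4% and 13.8% of all entries tested. SOCS7, a member of the SOCS family on chromosome 17 from 38352228 to 38405593, stood at 13.1, 13.6 and 11.7 FPKM in HCC827/GR replicates 1, 2 and 3 and 3.13 and 3.85 FPKM in HCC827 replicates 2 and 3. Its log2 fold change was 1.62 ± 0.122 (SE) at a limma adjusted p of 0.00552, and of the 9 related genes called it was the one that kept an adjusted p under 0.05 with each library left out, between 0.0261 and 0.0389. Under the Ballgown-type model the adjusted p was 0.174 for SOCS7 and at least 0.156 for all 9, so 0 of them were called. Of all entries tested, that model called 4 higher and 9 lower. PTPN6, a phosphatase that dampens cytokine receptors, fell by 0.61 on the log2 scale (adjusted p = 0.0312 from limma), and without any one of the libraries its adjusted p was between 0.0818 and 0.128. SOCS2 had a log2 fold change of -1.31 with a limma adjusted p of 0.0548 and is no call, and SOCS1 was listed at 0 in HCC827/GR replicate 2. SOCS5 stood at 5.81 and 0.0307 FPKM in HCC827 replicates 2 and 3, so its change is uncertain.

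Of 30 genes widely described as targets of STAT3 or IL6, 20 were tested, of which 2 rose and 1 fell (3 and 3 at an unadjusted p under 0.05), with a median of 0.04. PIM1, a survival kinase, stood at 26.0, 24.2 and 18.7 FPKM in HCC827/GR replicates 1, 2 and 3 and 9.13 and 8.998 FPKM in HCC827 replicates 2 and 3, a log2 fold change of 1.24 ± 0.162 (SE) at a limma adjusted p of 0.0172. ICAM1, an adhesion molecule, had 44.7, 45.0 and 56.6 FPKM against 23.6 and 28.2 FPKM, a log2 fold change of 0.89 ± 0.156 (SE) at a limma adjusted p of 0.0341. IL1RN, the antagonist of the interleukin 1 receptor, fell by 1.14 on the log2 scale (adjusted p = 0.0440 from limma), from 1.76 and 0.811 FPKM to at most 0.0379 FPKM. IL1RN reached the mean of 0.5 FPKM only through the HCC827 libraries, and with a filter at 1 FPKM it was not tested. Over the 13 alternatives in which it was tested, the log2 fold change of IL1RN ranged from -3.50 to -0.83. PIM1 kept its call without HCC827/GR replicate 3 and IL1RN without HCC827 replicate 3, whereas with any other library left out their adjusted p went up to 0.0986 and 0.117. ICAM1 lost its call without any one library (adjusted p between 0.0629 and 0.146). JUNB was listed at 0 in HCC827/GR replicate 1 and HCC827 replicate 2, and CEBPB in HCC827/GR replicate 1, so the values of these genes are uncertain.

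Among the 9 regulators of IL6 transcription and mRNA decay, 8 were tested, of which 1 rose and 1 fell (2 and 2 at an unadjusted p under 0.05), with a median of 0.19. NFKBIA, which encodes an inhibitor of NF-kB and is itself induced by it, stood at 31.8, 26.8 and 31.1 FPKM in HCC827/GR replicates 1, 2 and 3 and 18.7 and 18.3 FPKM in HCC827 replicates 2 and 3, a log2 fold change of 0.66 ± 0.111 (SE) at a limma adjusted p of 0.0309. NFKBIZ, a nuclear cofactor of NF-kB, fell by 0.70 on the log2 scale (adjusted p = 0.0478 from limma), from 7.22 and 7.83 FPKM to 4.43, 4.89 and 3.53 FPKM. NFKBIA kept its call without HCC827/GR replicate 2 and lost it without any other library (adjusted p up to 0.116), and NFKBIZ lost it without any one library (adjusted p between 0.0723 and 0.182).

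As a check of the label, 5 of 6 epithelial markers were found and summed to between 442.6 and 572.6 FPKM in HCC827/GR and between 1063 and 1182 FPKM in HCC827 libraries, with 0 of 5 called higher and 4 lower by limma. Mean EPCAM was 79.75 FPKM in HCC827 and 8.875 FPKM in HCC827/GR libraries, and mean CDH1 was 30.33 and 7.221 FPKM. KRT19 had means of 257.1 and 88.83 FPKM, and KRT18 of 487.5 and 255.4 FPKM. KRT8, a keratin of simple epithelia, was not called, with means of 268.1 and 159.1 FPKM and a lowest value of 127.3 FPKM. Fibroblast markers summed to between 2.5 and 2.78 FPKM in HCC827/GR and between 3.31 and 3.39 FPKM in HCC827 libraries. PDGFRA, whose entry also joins transcripts of FIP1L1, made up most of each sum. It was at 1.88 to 1.91 FPKM in HCC827/GR and at 2.40 and 2.53 FPKM in HCC827 libraries. COL1A1, COL3A1, DCN and LUM were not above 0.861 FPKM in any library, and COL1A1 overlapped between the groups. Leukocyte markers, 4 of 4 with a mean below 0.5 FPKM, summed to between 0.128 and 0.334 FPKM in HCC827/GR and between 1.33 and 1.45 FPKM in HCC827 libraries, where CD79A made up most of the sum and the defining marker PTPRC was not above 0.0228 FPKM in any library. The endothelial marker PECAM1 has 10 entries, which together came to 2.80, 2.11 and 2.17 FPKM in HCC827/GR replicates 1, 2 and 3 and 16.6 and 15.2 FPKM in HCC827 replicates 2 and 3. The entry with the highest mean alone was at 0 in HCC827/GR and at 4.34 and 3.31 FPKM in HCC827 libraries, and the defining markers VWF and CDH5 were not above 0.0749 FPKM in any library. Sums of all 4 marker lists were thus lower in each HCC827/GR library, that of the fibroblast list mostly through the joined PDGFRA entry. Their part in the results for IL6, LIF, OSMR and the related genes was not tested. FPKM gives no read counts, and depth is unknown here.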

How the data were processed

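The RNA of 3 HCC827/GR and 2 HCC827 libraries was examined. According to the submitters' processing notes and the paper's methods, the authors trimmed reads with Cutadapt, checked them with FastQC, mapped them with Bowtie2 and TopHat2, assembled them with StringTie and deposited 1 FPKM value per gene or locus and library, estimated with StringTie and Ballgown. The notes name the build hg18, whereas positions here came from GENCODE release 29 (GRCh38) through Ensembl transcript identifiers and promoters from RefSeq (GRCh38.p14). The labels describe a small-RNA library and the paper an rRNA-depleted one. A further FPKM column (1), headed GS_1 as the HCC827 columns are headed GS_2 and GS_3, matched no sample used here and was left out. Symbols had several entries in 2304 cases, and the entry with the highest mean was used, while the sum over all entries of PECAM1 was added after the data were seen.

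Values were compared with limma 3.58.1 in R 4.3.3 (two-sided, moderated variances with an intensity trend) on log2(FPKM + 1), over entries whose mean reached 0.5 FPKM. Intervals are the 95% intervals of that fit, unadjusted. Ratios used an exact permutation test of the difference of mean log2 ratios. The limma script was tested on simulated data. Python 3.11.15 (numpy 2.4.6, pandas 2.3.3, matplotlib 3.10.9) made the plots. The genes and lists were chosen with earlier results of these data known. Named related genes are those with an adjusted p under 0.05 and an absolute log2 fold change of at least 0.5, at most 8 a list. Genes not found under their symbol were IL31, SOCS6, PTPRT, HIF1A, REL, KRT7 and CD3E, and they were not analysed here. Some list genes that enter the counts are not reported here by name.

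Also tried were quantile normalization, median-ratio scaling, 0.1 as pseudocount, limma without the trend, a filter at 1 FPKM and none, a linear model as in Ballgown with a library size term, the replicate number as a block, summed entries of a symbol, the ratio of mean FPKM for the genes of the set, and each library left out in turn.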

Additional observations from a re-analysis of the deposited data

How the results depend on the processing

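Of 150 values of the 10 genes recomputed under other settings, 125 kept their direction and their side of the threshold (for the ratio of mean FPKM, moved by less than the spread), 17 lost a call, 3 moved with the ratio of mean FPKM and 5, all of STAT3, changed sign around 0, at 3e-04 with median-ratio scaling, 0.22 with the library size term, 0.014 and 0.11 without HCC827/GR replicates 2 and 3 and 0.15 without HCC827 replicate 2 (-0.17 to 0.15 with each library left out). With no filter, IL6 had an adjusted p of 0.0821. The Ballgown-type model called 0 genes of the set (2 at an unadjusted p under 0.05), 0 related genes higher and 0 lower (5 and 5 unadjusted), and 4 entries higher and 9 lower of all. Other settings gave 2 related genes higher and 0 lower with no filter (limma, 7 and 16 unadjusted), and 3 lower with a pseudocount of 0.1 and 3 with quantile normalization. With each library left out, between 0 and 2 genes of the set were higher (0 without HCC827 replicate 2, 3 unadjusted), 1 to 3 related genes higher and 0 to 1 lower, and 202 to 485 of all entries higher and 287 to 477 lower. Without an HCC827 library, the remaining one was assumed to vary like the HCC827/GR libraries.

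With the replicate number as a block, limma called 0 genes of the set, 0 related genes and 0 of all entries (3 of the set, 8 related higher and 11 lower, and 1676 and 1869 of all entries at an unadjusted p under 0.05), with 1 residual degree of freedom among libraries. The deviations of same-numbered libraries correlated at 0.0328 and 0.0147, so the numbers were not treated as pairs. Settings with fewer libraries or a further model term leave fewer degrees of freedom, and otherwise the cause of these changes was not tested.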

Other observations

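FOSL2, a member of the list of STAT3 or IL6 targets, has 2 entries in the deposited table, and it was singled out after its values were seen. The entry with the higher mean stood at 9.37, 45.8 and 6.29 FPKM in HCC827/GR replicates 1, 2 and 3 and 5.15 and 7.23 FPKM in HCC827 replicates 2 and 3, and the other entry at 5.49, 4.63 and 3.997 FPKM against 1.34 and 0.990 FPKM. The groups overlapped in the first entry and did not overlap in the second. Of all entries tested, 22.8% were higher in HCC827/GR cells without overlap, and no test of the second entry is reported here.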
